A study of Mus musculus with 16 samples.

Results

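Promoter-capture Hi-C joins DNA fragments that lie close together in the nucleus and keeps the pairs that include a promoter. The contacts described here are the pairs with both ends on mouse chromosome 4 and more than 5 Mb apart on the GRCm38 reference. They were taken from the authors' list of interactions by that rule, whatever the column in which they scored, and number 3180 of 260860 listed interactions. They start from 196 of 20017 promoter fragments (baits). Since a pair is listed only where its score is high, the scores that chose these contacts are given as a description, with no test.

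Contacts of one promoter usually become rarer with distance along the chromosome. CHiCAGO, the method behind the scores, rates a pair against what is expected at its distance on the reference genome, and a score of 5 is its usual calling threshold. The expectation for pairs many Mb apart is very low. Known long-range contacts in embryonic stem cells include those among Polycomb-bound developmental genes and those within gene-dense active chromatin.

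The 16 samples were embryonic stem cells in 2i and Lif (ESC, day 0) and epiblast-like cells (EpiLC, day 2) of 4 mouse lines. TET_KO lacks Tet1, Tet2 and Tet3, which remove DNA methylation. DNMT_KO lacks Dnmt1, Dnmt3a and Dnmt3b, which add and maintain it. TET_WT and DNMT_WT are the parental wild-type lines of these knock-outs, so a knock-out and its parent share their origin and are not independent lines. The labels give 2 replicates per line and stage, but the values come as 1 column per line and stage, with no SD and with depth unknown; cell identity cannot be checked from contacts.

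Scores of 5 or more were about as frequent in every column over all listed interactions, at 33.6% in DNMT_WT ESC, 31.9% in DNMT_KO ESC, 33.2% in TET_WT ESC and 35.9% in TET_KO ESC. In EpiLC they made up 33.7%, 34.4%, 36% and 38.6% in the same order of lines. The column labelled DNMT_WT ESC stood apart from the other DNMT columns in the contacts described here. In that column alone, 26 contacts joined Mb 44 to 45 of chromosome 4 to a stretch of chromosome 10, and the other columns had 0 of them. Results that rest on this column are given with and without it.

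Promoter sequences of 3 baits are shown first, which rank 4, 6 and 8 by their number of far contacts. Of the 20 baits with most far contacts, 7 had an entry in the RefSeq promoter table (GRCm38.p6, 250 bases before to 50 after a gene's start). The 3 of these that rank highest are printed: Sdc3 (syndecan-3, a cell-surface proteoglycan), Clstn1 (calsyntenin-1, a membrane protein of neurons) and Prkcz (the atypical protein kinase C zeta). They lie on chr4:130792287-130792586 on the plus strand, chr4:149586218-149586517 on the plus strand and chr4:155361379-155361678 on the minus strand, and are written 5′ to 3′. Capitals mark GGGCGG, the GC box, or its reverse complement CCGCCC, with overlapping matches counted.
Sdc3: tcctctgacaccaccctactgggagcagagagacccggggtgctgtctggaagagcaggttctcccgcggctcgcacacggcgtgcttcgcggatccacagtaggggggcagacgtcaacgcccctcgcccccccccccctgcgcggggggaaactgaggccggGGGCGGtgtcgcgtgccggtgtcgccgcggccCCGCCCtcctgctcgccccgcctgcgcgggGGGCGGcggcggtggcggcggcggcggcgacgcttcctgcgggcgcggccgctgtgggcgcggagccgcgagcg
Clstn1: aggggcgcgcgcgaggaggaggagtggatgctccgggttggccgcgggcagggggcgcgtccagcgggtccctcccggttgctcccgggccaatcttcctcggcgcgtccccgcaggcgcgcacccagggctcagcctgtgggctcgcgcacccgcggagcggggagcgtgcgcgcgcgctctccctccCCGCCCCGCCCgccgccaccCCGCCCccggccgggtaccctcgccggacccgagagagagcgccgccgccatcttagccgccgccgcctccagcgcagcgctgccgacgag
Prkcz: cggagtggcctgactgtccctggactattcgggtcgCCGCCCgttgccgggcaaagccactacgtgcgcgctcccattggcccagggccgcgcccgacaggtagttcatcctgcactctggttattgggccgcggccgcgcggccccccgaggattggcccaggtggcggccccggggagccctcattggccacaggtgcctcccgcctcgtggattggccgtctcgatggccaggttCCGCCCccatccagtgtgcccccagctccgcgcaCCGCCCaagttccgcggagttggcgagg
Each of the 3 windows held 3 GC boxes, a motif found in 35.7% of the 32851 promoter windows of the table. They held 44, 48 and 31 CpG dinucleotides in that order, against a median of 7 over all windows. Of the next 2 baits with a window, Nmnat1 held 1 GC box and 28 CpG, and Rbp7 held 1 GC box and 5 CpG, below the median. The motif matches describe these letters and mark no binding.

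Far contacts on chromosome 4 were a feature of the DNMT columns. Of the 3180 pairs, 205 scored 5 or more in DNMT_WT ESC, 1755 in DNMT_KO ESC, 2222 in DNMT_WT EpiLC and, for DNMT_KO EpiLC, 1933. The TET columns held 9 (TET_WT ESC), 8 (TET_KO ESC), 19 (TET_WT EpiLC) and 10 (TET_KO EpiLC). The DNMT columns thus held 99.3% of the 6161 calls, or 99.2% without the DNMT_WT ESC column. No pair was called in all 8 columns, and of the 45 pairs called in a TET column, 0 were called in a DNMT column. The same counts over all listed interactions are not given here, so these only describe the pairs.

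**Figure D1:**
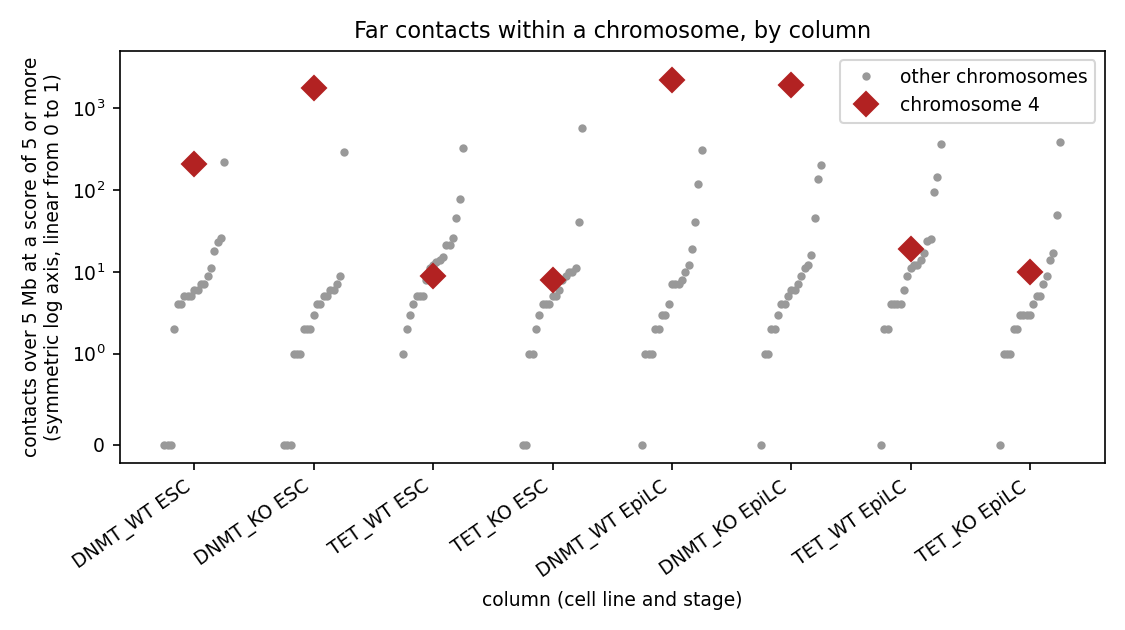
Contacts of more than 5 Mb within a chromosome at a score of 5 or more (vertical axis, symmetric log, linear from 0 to 1) in each of the 8 columns. Diamonds are chromosome 4 and grey points the 19 other chromosomes; chromosome 4 lies between 1755 and 2222 in DNMT_KO ESC and both DNMT EpiLC columns, at 205 in DNMT_WT ESC and between 8 and 19 in the TET columns.

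Nearly all pairs also lacked a score above 0 in the TET columns. A score of 0 or no score at all stood in 99.6% of the pairs in TET_WT ESC, 99.5% in TET_KO ESC, 99.3% in TET_WT EpiLC and 99.5% in TET_KO EpiLC. The same share was 85.7% in DNMT_WT ESC, 26.8% in DNMT_KO ESC, 16.8% in DNMT_WT EpiLC and, for DNMT_KO EpiLC, 22.0%. The median score was 5.83 in DNMT_KO ESC, 8.81 in DNMT_WT EpiLC and, for DNMT_KO EpiLC, 7.51. The highest score in any TET column was 14.8, against 465 in DNMT_WT EpiLC.

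Chromosome 4 held more far calls than any other chromosome in DNMT_KO ESC and both DNMT EpiLC columns. In DNMT_WT ESC its 205 were below the 218 of chromosome 1. On the other chromosomes the median count of far contacts per column lay between 3 and 12. The highest was chromosome 1, which held 218, 294, 321 and 563 called far contacts in the ESC columns of DNMT_WT, DNMT_KO, TET_WT and TET_KO. Chromosome 4 gave 57.6% of the far interactions of all chromosomes.

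The DNMT columns shared part of their pairs, and 1399 of the 3180 were called in 1 column only. DNMT_KO ESC and DNMT_WT EpiLC shared 1285 pairs, which is 73.2% of the first list and 57.8% of the second. The EpiLC columns shared 1356 pairs, 61.0% of those in DNMT_WT and 70.2% of those in DNMT_KO. The pairs of DNMT_WT ESC made up 11.2% of those of DNMT_KO ESC, 9.14% of those of DNMT_WT EpiLC and 9.98% of those of DNMT_KO EpiLC. Of the 205 pairs called in DNMT_WT ESC, 1 was called in no other DNMT column, and 186 were among the 997 pairs called in all 3 other DNMT columns. The listing rule makes some overlap certain, so these shares describe the columns only. Shares over all listed interactions are not given for comparison.

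Very high scores have no clear order in this table. Of the scores of the 3180 pairs in all columns, 849 lay from 25 to 31, against 505 from 20 to 25 and 318 from 31 to 50. Pairs with scores above 100 in one DNMT column could score 25 to 31 in another. Scores above 25 are therefore read as high, and their sizes are not compared.

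By pairs of 5 Mb windows, 3115 of the 3180 interactions (98.0%) fell into 8 of 40 occupied window pairs, all between 125 and 160 Mb of the chromosome. The fullest joined 130 to 135 Mb with 140 to 145 Mb and held 682 interactions, with 28 calls in the column DNMT_WT ESC, 420 for DNMT_KO ESC, 516 for DNMT_WT EpiLC and 361 for DNMT_KO EpiLC. The pair of 135 to 140 Mb and 145 to 150 Mb held 548, and that of 125 to 130 Mb and 150 to 155 Mb held 543. Next came 125 to 130 Mb with 155 to 160 Mb (382 interactions), 130 to 135 Mb with 135 to 140 Mb (322), and the pairs of 130 to 135 Mb with 150 to 155 Mb and of 135 to 140 Mb with 140 to 145 Mb (244 each). The last, 130 to 135 Mb with 155 to 160 Mb, held 150. In these 8 window pairs the TET columns had 0 calls and the DNMT columns 6093.

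The remaining 65 interactions were spread over 32 window pairs, 20 of which held a single one. Here the TET columns held 46 calls and the DNMT columns 22. The window pair of 30 to 35 Mb and 40 to 45 Mb was the largest of them, with 16 interactions, 12 calls in TET columns and 4 in DNMT columns. Among baits in the window of 40 to 45 Mb, 2010003O02Rik had 6 far interactions in all, with 1 call in DNMT_KO EpiLC and the others in TET columns. Ddx58, the RNA sensor RIG-I, had 4 far interactions in all, each called in a TET column. A Ddx58 pair ended at 35.238 Mb, so it fell in the window pair of 35 to 40 Mb and 40 to 45 Mb. The co-chaperone gene Dnaja1 had 4 in all, with 1 call in DNMT_KO EpiLC and the others in TET columns. The highest score of Dnaja1 was 9.32, in TET_WT EpiLC.

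Within the 8 window pairs the contacts formed compact rectangles rather than a spread. Joining interactions whose ends lay within 250 kb of each other gave 11 blocks of at least 20 interactions, which together held 3091 interactions (97.2%) and 146 of the 196 baits. The blocks were drawn from the scores and are described without a test. They reached from 128.6 to 155.9 Mb.

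The most distal pairing was split between neighbouring stretches. One block of 543 interactions joined 128591922 to 129706831 with 151759191 to 152233040. A second, of 530 interactions, joined 129716856 to 130311367 with 155316979 to 155871231. Their left sides are 10.0 kb apart, yet their right sides lie more than 3 Mb from each other. In the first block 38 interactions were called in DNMT_WT ESC, 265 in DNMT_KO ESC, 376 in DNMT_WT EpiLC and, for DNMT_KO EpiLC, 372. In the second the counts were 3, 214, 336 and 320 in the same order.

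The right side of the first block also adjoined another block. A stretch at 132451007 to 132702877 was paired with 152258720 to 152612696 in 244 interactions, with 25.7 kb between the 2 right sides. It holds Eya3, a transcriptional coactivator and phosphatase, Ptafr, the receptor of platelet-activating factor, and Hes3 at the other side. A block of 30 interactions joined nearly the same left stretch, 132453064 to 132644392, with 144254237 to 144544169.

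A stretch of 94.4 kb at 130743095 to 130837461 took part in 3 blocks with the same outer fragments. It was paired with 137207864 to 137329297 (111 interactions), with 140313413 to 141033381 (96) and with 142357148 to 143952658 (412). The 121 kb stretch at 137207864 to 137329297 was in turn paired with 142340715 to 143907881 (240). So 3 stretches far apart on the reference were paired with each other in each of the 3 combinations. The largest block, of 548 interactions, ended 4.49 kb inside this stretch: it joined 136308944 to 137212356 with 148666875 to 149591527.

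The 2 other blocks joined 134723871 to 135124162 with 139792485 to 140152012 (258 interactions) and 129894360 to 130752407 with 135429738 to 135875014 (79). In all 11 blocks the TET columns had 0 calls. The share of a block called in DNMT_WT ESC ran from 0% in the blocks of 30 and 79 interactions to 41.4% in the block of 111, where 46 pairs were called against 102 in DNMT_WT EpiLC. The block of 240 was next, at 20.4%, and the others lay between 0.566% and 6.998%.

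**Figure D2:**
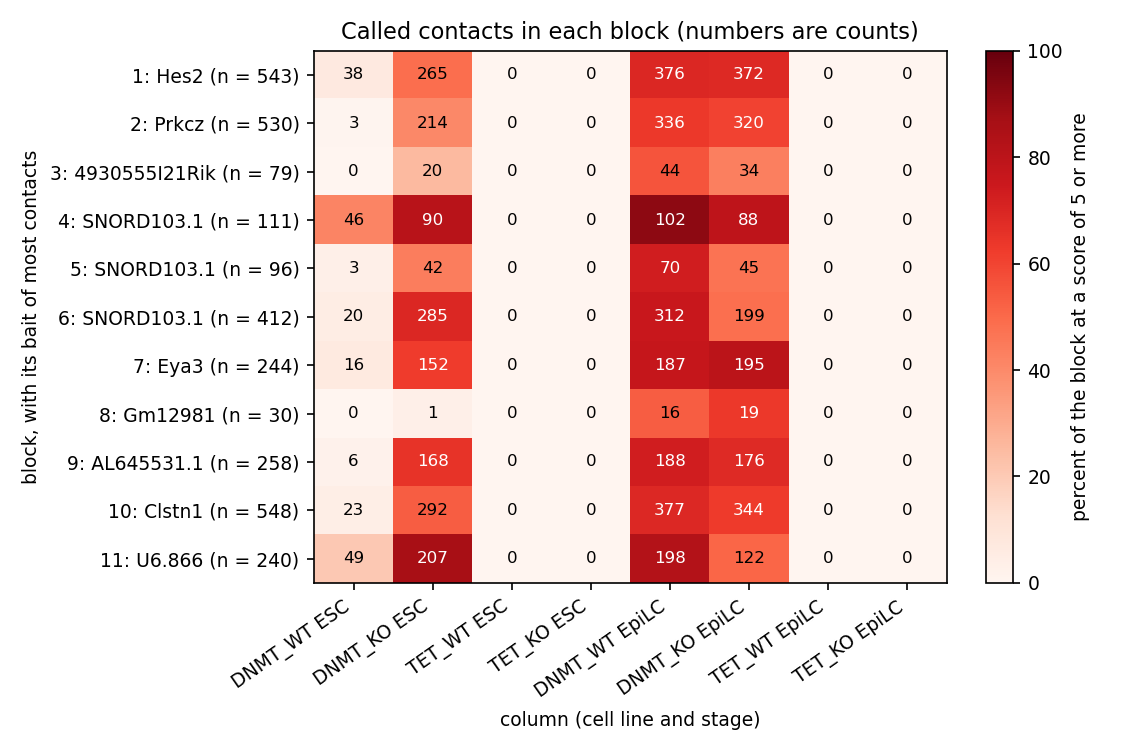
Called contacts in each of the 11 blocks (rows, numbered along the chromosome and named by the bait with most contacts) and 8 columns. Colour is the percent of the block's interactions at a score of 5 or more and the number is their count; the TET columns are 0 throughout, and DNMT_WT ESC reaches its highest share, 46 of 111, in block 4.

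Scores within blocks fell up to 800 kb from the block's strongest contact. That contact was picked by its mean score, on a log-like scale, in DNMT_KO ESC, DNMT_WT EpiLC and DNMT_KO EpiLC. The medians below come from the same columns, so a fall away from it is built in. In DNMT_WT ESC the median was 0 at every distance. Pairs whose 2 ends lay in sum under 100 kb from it had a median score of 17.6 in DNMT_KO ESC, 22.4 in DNMT_WT EpiLC and, for DNMT_KO EpiLC, 16.4, with pairs without a score set to 0. From 200 to 400 kb the medians were 4.82, 7.49 and 5.88, and from 400 to 800 kb 0.262, 6.20 and 4.53. From 800 to 2000 kb they were 7.52, 10.2 and 3.90, and 343 of the 363 pairs there came from the blocks of 412 and 240 interactions. In 4 of 11 blocks the strongest contact lay within 30 kb of an outer edge on both sides, and in 7 of 11 on at least 1 side. Much of a short side, such as that of 94.4 kb, lies this near an edge, and no expected share was computed.

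Among the highest-scoring contacts, Tmem39b, which encodes a membrane protein, reached a fragment inside Acot7, 22.5 Mb away (152231117 to 152232201). Its score was 76.1 in DNMT_WT ESC, 371 in DNMT_KO ESC, 383 in DNMT_WT EpiLC and, for DNMT_KO EpiLC, 455. It was 0 in both TET_KO columns, with no score in both TET_WT columns. Every DNMT column was high here, DNMT_WT ESC included. The pair was picked for its high score, so its distance from the TET columns is a description only.

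Clstn1 contacted a fragment at 137207864 to 137210524, 12.4 Mb away, with 54.4 in DNMT_WT ESC, 28.7 in DNMT_KO ESC, 27.6 in DNMT_WT EpiLC and, for DNMT_KO EpiLC, 282. The TET columns had no score. Acot7, an acyl-CoA thioesterase, contacted a fragment inside Tmem39b with 10.7, 68.2, 26.2 and 150 in the same order. These are neighbouring but different fragments from those of the Tmem39b contact. Elsewhere in the set, 20 pairs are listed from both ends.

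A few promoters carried much of the set. The 20 baits with most far contacts held 1531 interactions (48.1%), and 63 baits held 1 each. All 20 had 0 calls in the TET columns. Their number of contacts follows how much of a block lies opposite the bait as well as its scores, so it ranks the baits by position too.

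Of these 20 baits 5 lie in the 2 short stretches that pair with each other. SNORD103.1, a small nucleolar RNA copy, had 230 far contacts. Of these, 17 were called in DNMT_WT ESC, 167 in DNMT_KO ESC, 208 in DNMT_WT EpiLC and, for DNMT_KO EpiLC, 144. U6.866, a copy of the U6 small nuclear RNA gene on a fragment inside Cdc42, a GTPase gene of cell polarity, had 192, with 56, 179, 166 and 102 called in the same order. SNORD103.2 (117 contacts), Sdc3 (111) and Snord85 (66) are the other baits of the Sdc3 stretch. The fragment of Snord85 ends the left side of the block of 79 and starts that of 3 other blocks, so it had contacts in 4.

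At the 149 Mb side, Clstn1 had 69 far contacts (11, 47, 57 and 57 called in the same order). Near it, U6.567 had 64, Nmnat1, an enzyme of NAD synthesis, had 55, the retinol-binding protein gene Rbp7 had 53 and Gm13097 had 43. At the 152 Mb side, Hes2, a repressor of the Notch-related bHLH family, had 85 (12, 43, 67 and 73). Acot7 had 49, Espn, an actin-bundling protein of hair cells, 47, and the zinc-finger gene Zbtb48, a telomere-binding factor, 43. At the 155 Mb side, Prkcz had 64 (2, 43, 50 and 48), Gabrd, the delta subunit of the GABA-A receptor, 59 (0, 25, 51 and 37), C030017K20Rik 46 and 2010015L04Rik 45. At the 134 Mb side, AL645531.1 had 47.

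**Figure D3:**
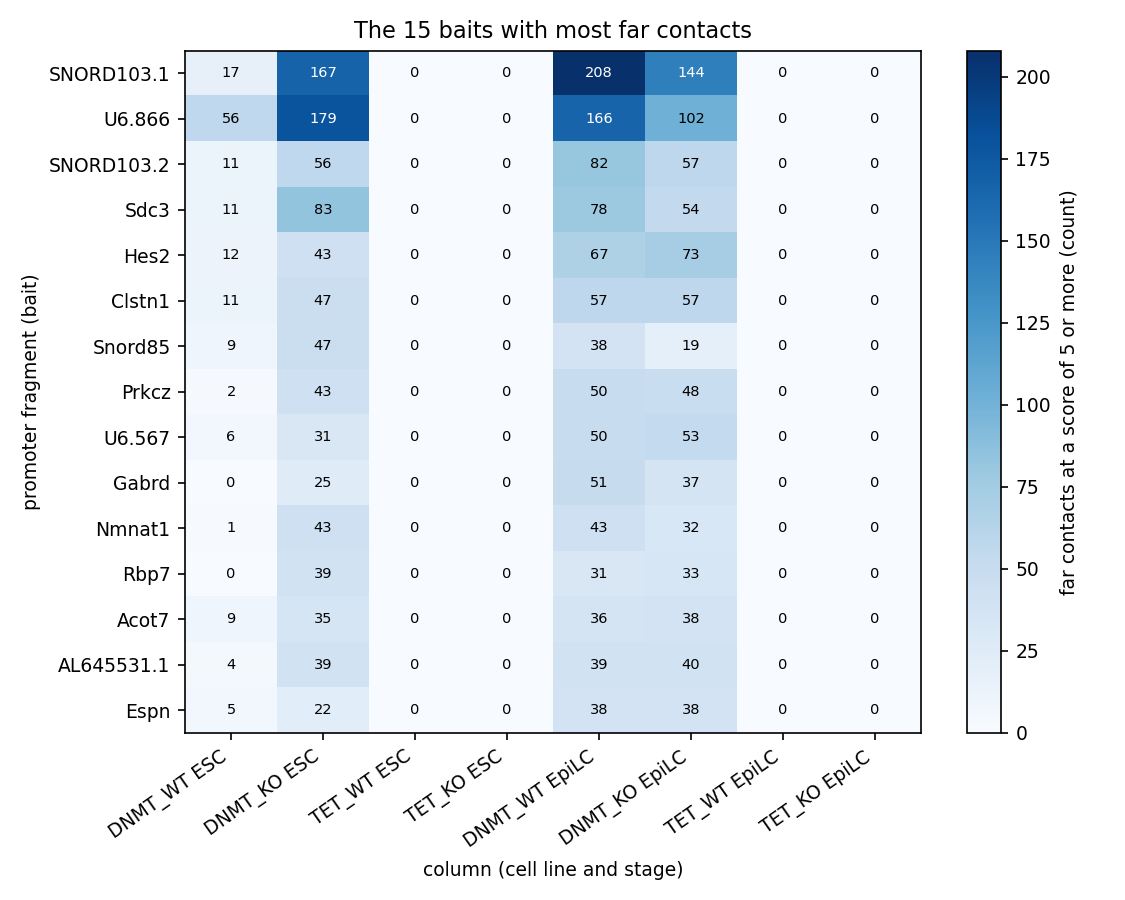
Far contacts at a score of 5 or more (number and colour) for the 15 baits with most far contacts (rows) in the 8 columns. Each bait has 0 in the 4 TET columns; DNMT_WT ESC lies between 0 and 56 and below the 3 other DNMT columns at each bait.

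Beyond 128 Mb, 155 of 453 baits (34.2%) had a far contact, against 196 of 1261 (15.5%) on the chromosome as a whole. Of 20 developmental transcription factor baits 6 were members, led by Hes2, Hes3 (25 far contacts) and the muscle-precursor factor Pax7 (4). Of 12 blood and endothelium baits 4 were members: Rhd, a blood group antigen (30), Ptafr (29), Lck, the kinase of the T-cell receptor (21), and Stil (1). Of 6 pluripotency-list baits 2 were members, the histone deacetylase Hdac1 (20) and Rcc2 (10). Hdac1 had 0, 10, 16 and 18 calls in the DNMT columns and 1 in TET_WT EpiLC.

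Of 5 Eph receptor baits 2 were members, Epha8 (37) and Ephb2 (8), and of 6 Tnfrsf baits 1 (Tnfrsf25, 20). Of 3 baits named Pramel or Pramef 2 were members (Pramef12, 4, and Pramel1, 1). The lists went by bait name, and member baits under other names also overlap Pramel genes. Among them were Gm13089 (Pramel23, 31), Gm13078 (Pramel24, 31), Gm13125 (Pramel15 and Pramel13, 5) and D530049N12Rik (Pramel13, 4). Of 17 microRNA baits 1 was a member (Mir2139, 21), of 8 Zfp zinc-finger baits 1 (Zfp292, 2) and of 6 Skint baits 1 (Skint4, 1). Interferon (5 baits), cytochrome P450 (9) and odorant receptor (20) baits had no far contact, and none of them lies beyond 128 Mb. Small RNA copies gave 14 members among 116 baits and 705 of the 3180 contacts, led by SNORD103.1, U6.866 and SNORD103.2. Member baits were as long as others, with a median of 6.14 kb against 6.19 kb for the remaining baits of the chromosome.

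The distance limit cut through a continuing pattern. Just inside it, Mir2139 had a pair at 5.00047 Mb with a highest score of 11.2, and just outside it Gm13029 had one at 4.99671 Mb with 6.45. Among pairs 1 to 5 Mb apart beyond 128 Mb, 41 were called in DNMT_WT ESC, 741 in DNMT_KO ESC, 1229 in DNMT_WT EpiLC and, for DNMT_KO EpiLC, 1101. The TET columns held 3, 1, 1 and 0 there, in the order TET_WT ESC, TET_KO ESC, TET_WT EpiLC and TET_KO EpiLC. Before 128 Mb, the same distances gave 62, 85, 217 and 211 calls in the DNMT columns and 178, 237, 312 and 400 in the TET columns.

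Summed over positions, short contacts that cross the ends of blocks showed the opposite difference. These pairs are at most 1 Mb apart, so the rule did not use them, although the positions were taken from the blocks. Ends of 2 or more blocks met within 30 kb at 8 positions. Over these, 231 listed short contacts crossed a position, and 124 calls were in DNMT columns against 438 in TET columns, so the DNMT columns held 22.1% of the calls. Over all 14847 short contacts of the chromosome they held 49.7%. No test was made, since the positions were chosen from the same columns.

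At 129.7 Mb, between the blocks of 543 and 530, 27 short contacts crossed. In DNMT_WT ESC 7 were called, in DNMT_KO ESC 2, and both EpiLC columns of these lines called 1. The TET columns called 18 (TET_WT ESC), 16 (TET_KO ESC), 14 (TET_WT EpiLC) and 9 (TET_KO EpiLC), all above the DNMT columns. At 152.2 Mb 72 crossed, with 13, 0, 2 and 4 calls in the DNMT columns and 17, 27, 31 and 61 in the TET columns, in the same orders. At 137.2 Mb 67 crossed, with 27, 10, 8 and 7 against 40, 32, 22 and 24. DNMT_WT ESC held the highest DNMT count at each of these 3 positions, and at 137.2 Mb it overlapped the TET EpiLC columns.

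The left edge of the Sdc3 stretch, at 130.743 Mb, was crossed by 17 short contacts, with 3, 0, 0 and 0 calls in the DNMT columns and 7, 4, 5 and 4 in the TET columns. Its right edge, at 130.837 Mb, had 7, 3, 2 and 3 against 10, 8, 9 and 10, and the position at 132.451 Mb had 7, 1, 6 and 4 against 15, 9, 24 and 24. The 2 remaining positions were crossed by few listed contacts and did not show this difference. At 137.329 Mb 4 crossed, with 6 calls in DNMT columns against 7 in TET columns. At 142.341 Mb 2 crossed, with 2 against 0. Short contacts in the 1 Mb to either side of a position that crossed none were called more often in DNMT columns (53.5% to 76.7% of calls).

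**Figure D4:**
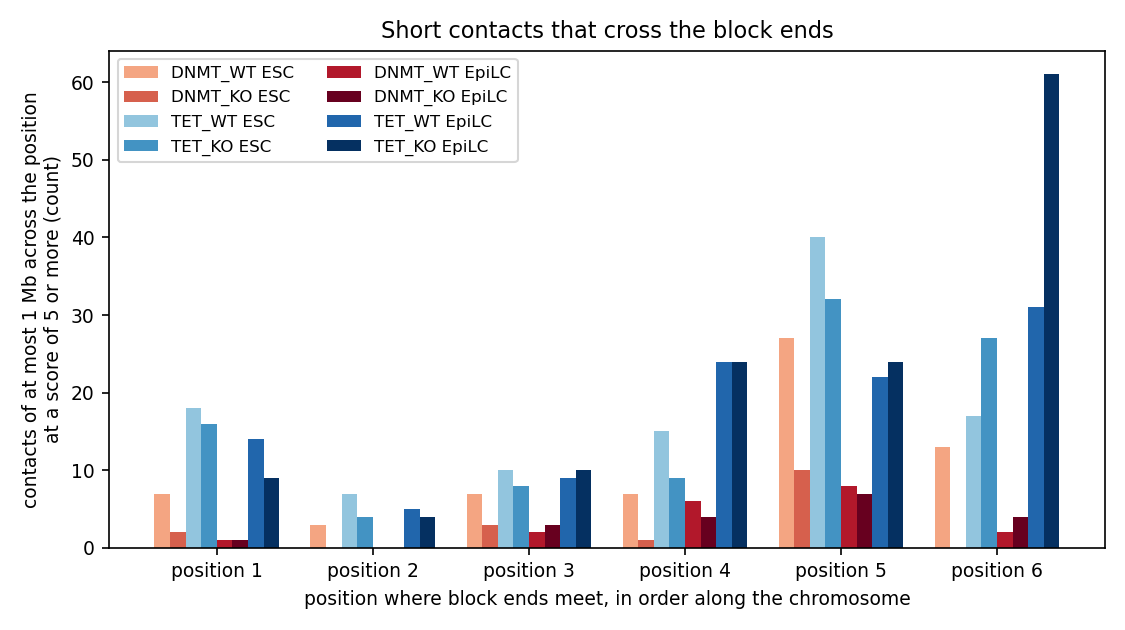
Contacts of at most 1 Mb that cross a position where block ends meet, at a score of 5 or more (count, vertical axis), for the 6 positions crossed by at least 10 listed contacts. Bars are the 8 columns, DNMT in reds and TET in blues; at 129.7 Mb (position 1) the TET bars are 9 to 18 and the DNMT bars 1 to 7.

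In near contacts, most member promoters in blocks were higher in the DNMT than in the TET lines. A promoter's near value is its mean asinh score over listed contacts of at most 5 Mb, with at least 3 such contacts scored in all 8 columns; asinh is close to a log for high scores. Of the 196 baits 160 had a value. Over the 119 with a value in blocks, the DNMT minus TET difference was above 0 in 97 and below 0 in 22, with a median of 0.29. Over the 41 others the median was -0.04, over the 229 other promoters of the chromosome beyond 128 Mb it was 0.13, and over all 15649 promoters it was 0.004. Of all promoters, 7958 were above 0 and 7691 below. The blocks hold far contacts called in DNMT columns only. Beyond 128 Mb, pairs 1 to 5 Mb apart, which enter the near values, were also called almost only there. Neighbouring baits of a block are not independent, so the counts in blocks are a description.

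By limma on the 2 DNMT against the 2 TET lines (each line the mean of its ESC and EpiLC columns), 1 member passed an adjusted p of 0.05, where 0.0128% of all promoters (2) did. Pramel1, of the Prame family expressed in germ cells and early embryos, had near values of 1.62, 3.12, 3.39 and 3.11 in DNMT_WT ESC, DNMT_KO ESC, DNMT_WT EpiLC and DNMT_KO EpiLC. Its values in TET_WT ESC, TET_KO ESC, TET_WT EpiLC and TET_KO EpiLC were 0.10, 0.07, 0.07 and 0.19. The DNMT and TET columns do not overlap, with a difference of 2.70. All 68 of its listed near contacts were called in a DNMT column and 0 in a TET column, so the listing itself sets this difference and it is given as a description. Of the 68, 67 lie over 1 Mb away. Pramel1 lies in no block, and its 1 far contact, which reaches 46.471 Mb, was called in the DNMT_KO columns only. The other promoter called was Phactr4, at 132421232 to 132426911, which has no far contact.

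At an unadjusted p under 0.05, 71 of the 160 members and 9.18% of all promoters differed (limma). In blocks these were 55 higher and 10 lower in the DNMT lines, and over all promoters 844 higher and 592 lower. Near contacts too are listed only where a column scored high, and neighbouring baits of a block are not independent. Without the DNMT_WT ESC column 13 members were higher and 2 lower at an adjusted p under 0.05, with 61 called over all promoters. In that fit DNMT_WT is its EpiLC value alone and the other lines are means of both stages. Stage is therefore mixed into its line difference. Without TET_WT 66 members and 1797 of all promoters were called, and without TET_KO 34 and 591. These fits leave 1 TET line, which is assumed to vary like the DNMT lines. With contacts of at most 1 Mb 0 members and 0 of all promoters passed limma (65 and 1403 at an unadjusted p under 0.05). The test counts a knock-out and its parent as 2 lines, which makes its p-values too small for a difference between 2 origins.

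Leading members differed in both directions, and those described next did not pass the threshold. Tmem39b, whose fragment lies 6.39 kb inside the end of its block, had near values of 1.95, 1.54, 1.35 and 1.24 in the DNMT columns and 2.51, 2.33, 2.32 and 1.92 in the TET columns, in the orders above. Its difference was -0.75 ± 0.16 (limma, adjusted p = 0.13), and DNMT_WT ESC was within the range of the TET columns. Hes2 differed by -0.60 ± 0.13 (adjusted p = 0.141, limma). Without the DNMT_WT ESC column Tmem39b (-0.90, adjusted p = 0.0225) and Hes2 (-0.75, adjusted p = 0.0311) passed in limma, in a fit where DNMT_WT rests on EpiLC alone. U6.866 has no settled direction: it differed by -0.69 ± 0.16 (adjusted p = 0.175, limma) over its 5 near contacts scored in all columns, of 61 listed, and by 2.40 (adjusted p = 0.0118, limma) with missing scores set to 0.

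Other block members lay as far to the higher side. Khdrbs1, an RNA-binding protein gene, differed by 0.91 ± 0.19, Eya3 by 0.76 ± 0.16 and Bai2, an adhesion G protein-coupled receptor, by 0.68 ± 0.14 (limma, adjusted p = 0.13 for each). These 3 were chosen after their values were seen, and without the DNMT_WT ESC column they passed, at adjusted p of 0.0156, 0.000921 and 0.00093 (limma). As DNMT_WT then rests on EpiLC alone, these passes mix stage with line. Among the 20 baits with most far contacts, Gm13097 (0.73 ± 0.19), 2010015L04Rik (0.55 ± 0.15) and Nmnat1 (0.52 ± 0.20) had the largest positive differences, with adjusted p of 0.246, 0.286 and 0.455 in limma.

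**Figure D5:**
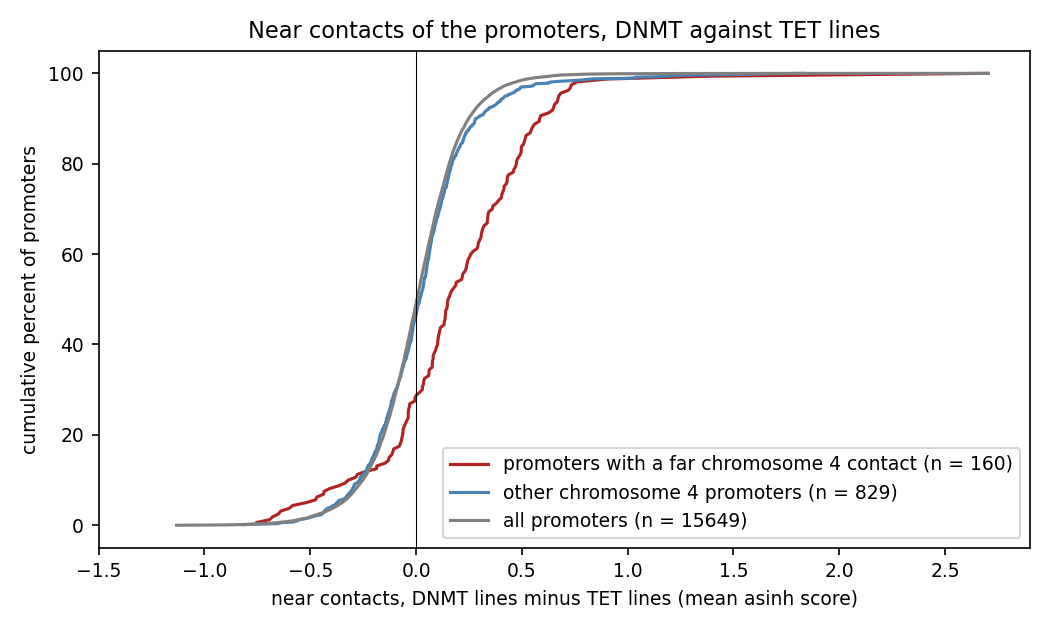
Cumulative percent of promoters (vertical axis) by the difference of their near contacts, DNMT minus TET lines, in mean asinh score. The red line is the 160 promoters with a far chromosome 4 contact and a near value, the blue line the other 829 promoters of chromosome 4 and the grey line all 15649; the red line lies to the right over most of its range, with a median of 0.15.

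Between ESC and EpiLC the near contacts of few members changed. By limma with cell line as a block, 5 of 160 members rose and 6 fell (6.88%) at an adjusted p under 0.05, against 9.65% of all promoters, of which 4.07% rose and 5.58% fell. Of the 119 in blocks 0 rose and 3 fell: Epha8 by 0.51 ± 0.15 (adjusted p = 0.036), the cyclin gene Ccnl2 by 0.42 ± 0.10 (adjusted p = 0.0159) and the complement gene C1qb by 0.35 ± 0.11 (adjusted p = 0.0434, all limma). Outside blocks, Gm10979 fell by 1.42 ± 0.22, Tex10 by 0.38 ± 0.11 and Tmeff1 by 0.36 ± 0.11. Rad23b, of DNA repair, rose by 0.91 ± 0.22, the actin-like testis gene Actl7a by 0.90 ± 0.20, Prpf38a by 0.44 ± 0.13, Dnajc6 by 0.44 ± 0.12 and Usp45 by 0.36 ± 0.11 (adjusted p from 0.00436 to 0.0445 in limma for these 8). 

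With columns left unscaled the split was 11 members that rose and 2 that fell, and 944 against 468 over all promoters. Without DNMT_KO 1 member and 230 of all promoters were called, without TET_WT 4 and 535, and without TET_KO 3 and 459. In the wild-type lines alone none of the 11 calls held, with 0 members and 23 of all promoters called. At an unadjusted p under 0.05 (limma) it was 22 members and 2412 of all promoters. With missing scores set to 0 the change of Ccnl2 was -0.22 (adjusted p = 0.214, limma) and that of Usp45 0.16 (adjusted p = 0.512, limma).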

How the data were processed

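The deposited table lists promoter-capture Hi-C interactions (HindIII fragments, GRCm38) with 1 CHiCAGO score per line and stage, made by the authors, per the file headers. Trim Galore 0.6.5 and cutadapt 2.3 are named in the submitters' processing notes; the sources used here do not state the aligner, or how the 2 replicates of each group were combined. Read depth behind a score is unknown. The members and gene lists were chosen with earlier results of these data known.

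Far contacts were counted at a score of 5 or more; missing scores were counted as not called. Blocks joined interactions within 250 kb at both ends. Near values were mean asinh scores of contacts of at most 5 Mb with a score in all 8 columns, quantile-normalized between columns, over promoters with at least 3. They were tested with limma 3.58.1 (R 4.3.3), between stages with line as a block and between line means, with Benjamini-Hochberg adjustment over 15649 promoters. The code was tested on simulated data. Knock-out lines derive from their wild types, and p-values measure the spread between these columns only.

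Named were the 10 fullest window pairs, the 20 baits with most far contacts and the 10 highest contacts (at most 2 a bait). Up to 10 near calls each way and up to 4 members of each list were named too. Others are examples, which may have been chosen after their values were seen. Alternatives changed the scaling, the distance, the minimum of contacts, the score, and the lines or stages used. Setting missing scores to 0 and leaving out the DNMT_WT ESC column were added after seeing the data. In the fit between lines, leaving out that column left DNMT_WT with its EpiLC value alone. Some items are not reported here.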

Additional observations from a re-analysis of the deposited data

Results flagged for a closer look

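A signal lay outside the contacts described above, in pairs that join chromosome 4 to another chromosome. The list held 417 interactions between 140 to 145 Mb of chromosome 4 and 75 to 80 Mb of chromosome 1. In ESC 7 were called for DNMT_WT and 138 for DNMT_KO, in EpiLC 328 and 161, and the TET columns had 0. Its baits were led by Efhd2 (74 interactions), Ctrc (48) and Cela2a (41), and on the chromosome 1 side by U1.67 (28) and Pax3 (17). None of its 18 chromosome 4 baits has a far contact within the chromosome. Its cause was not tested.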

How the results depend on the processing

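The DNMT columns' share of far calls was 99.9% at a score of 10 or more, 99.5% over 10 Mb and 99.5% without bait-to-bait pairs. The share in the 10 fullest window pairs was 99.2% over 10 Mb and 99.0% without bait-to-bait pairs. Members called between stages numbered 2 with no minimum of contacts, 5 with missing scores at 0, 0 in wild-type lines (22 at an unadjusted p under 0.05, limma) and 1 to 8 with a line left out. Over all promoters they numbered 277, 938, 23 (2412 unadjusted) and 230 to 671. Members called between lines numbered 0 within 1 Mb, 4 with missing scores at 0, 0 in ESC (22 at an unadjusted p under 0.05, limma), 5 in EpiLC, 15 without the DNMT_WT ESC column and 1 to 66 with a line left out. Over all promoters these were 0 (1403 unadjusted), 26, 0 (1005 unadjusted), 27, 61 and 4 to 1797. The cause was not tested. With missing scores set to 0, U6.866 turned from -0.69 to 2.40. Without scaling, the stage calls over all promoters turned from mostly lower (637 higher, 873 lower) to mostly higher (944, 468). For single promoters, 134 values stayed on their side of the threshold, 66 lost their call, 26 gained one and 1 reversed. No paired analysis was possible because the columns carry no replicate number; the block in the stage test is the cell line. Scores without read counts allow no limit from depth.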
